A study of Mus musculus with 14 samples.

Results

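Interleukin 1 (IL-1) and interleukin 18 (IL-18) with their receptors and natural antagonists were followed in sorted colonic macrophages as 8 genes, chosen by symbol for their place in the pathway and not by a threshold on their values: *Il1a*, *Il1b*, *Il1rn*, *Il1r1*, *Il1r2*, *Il1rap*, *Il18* and *Il18bp*. They are 8 of the 24982 genes in the count table and 8 of the 13136 that passed the filter on low counts. Each of them had at least 24 reads in every library tested, so none passed through a single genotype. The RNA came from live CD45+ cells that were CD64+, CD11b+ and MHCII+ and negative for Ly6G, CD103 and Ly6C, taken from the lamina propria of colon and cecum, sorted from 5-week-old C57BL/6 mice kept under specific pathogen-free conditions, with 1 library per mouse. All groups carried *Cdcs1*, a colitis susceptibility locus. WT mice are labelled with *Cdcs1* alone, but WT mice in other assays of the study were heterozygous for *Il10ra* and *Ccr2*, and the zygosity of the sequenced WT mice is not settled. IL10RAKO mice lacked *Il10ra* (*Cdcs1*, *Il10ra* -/-), DKO mice lacked *Il10ra* and *Ccr2* (*Cdcs1*, *Il10ra* -/-, *Ccr2* -/-), and CCR2KO was a single mouse lacking *Ccr2* (*Cdcs1*, *Ccr2* -/-). No promoter or cell type that would restrict a deletion is named for these alleles, so the tissue around the macrophages is taken to lack the genes as well. WT, IL10RAKO and DKO were compared with 4 mice each, while a further WT mouse (mouse 11), which has no values in the deposited pseudocount table, and the CCR2KO mouse (mouse 6) are given as values only. The 12 libraries compared held 13085287 to 21216468 counted reads, WT mouse 11 held 12153000 and CCR2KO mouse 6 held 17112375.

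IL-1α and IL-1β are the agonists of this system, and both signal through IL1R1 once it has joined its accessory protein IL1RAP. The receptor complex recruits MyD88 and IRAK kinases and activates NF-κB. IL1RN, the IL-1 receptor antagonist, occupies IL1R1 without bringing in IL1RAP, and IL1R2 is a decoy that binds IL-1 but has no signalling domain. IL-18 signals through IL18R1 and IL18RAP and is held in check by IL18BP, a secreted protein that binds it with high affinity. IL-1β and IL-18 are made as precursors that are cut by caspase-1 in inflammasomes, which RNA does not show. IL-10 is a known brake on the production of IL-1 by macrophages, and IL-1β is a well known cytokine of colitis in the absence of IL-10 receptor signalling.

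The libraries were checked against their labels. *Il10ra* was at 379.6, 217, 251 and 290.1 CPM (reads of the gene relative to library size, after TMM scaling) in WT mice 4, 5, 10 and 13, at 7.03, 6.54, 11.2 and 4.89 CPM in IL10RAKO mice 1, 2, 7 and 8, and at 6.63, 3.61, 7.59 and 3.41 CPM in DKO mice 3, 9, 12 and 14. *Ccr2* was at 561, 595, 702 and 514 CPM in WT, 627, 361, 379.9 and 535 CPM in IL10RAKO and 3.92, 5.79, 6.68 and 6.28 CPM in DKO mice. CCR2KO mouse 6 had 4.30 CPM of *Ccr2* and 182 CPM of *Il10ra*. Both targeted genes were thus low where the labels say so. In what follows the values are always given in this order of mice. All 12 macrophage and gate markers (*Ptprc*, *Itgam*, *Fcgr1*, *Csf1r* and the C1q genes among them) were detected in all 14 libraries, and their summed level was 24305 to 30119 CPM for WT, 30064 to 42615 CPM for IL10RAKO and 25424 to 33844 CPM in DKO mice. *H2-Ab1*, an MHC class II gene, made up most of this sum, at 15868 ± 2017 CPM in WT, 24213 ± 4206 CPM in IL10RAKO and 20216 ± 3157 CPM in DKO mice (SD, n = 4). Of the 12 markers, *H2-Ab1* and *Fcgr1* rose in IL10RAKO (log2 fold change 0.61 and 0.83), where 8.7% of all tested genes rose. In DKO, 2 of the 12 fell, namely *Cx3cr1*, a chemokine receptor of resident macrophages, from 389 ± 52.4 to 169 ± 37.6 CPM, and *Adgre1*, which encodes F4/80, from 740.1 ± 112 to 358 ± 124 CPM (adjusted p = 0.0162 and 0.0238 from edgeR), while *Mertk*, a receptor for dying cells, rose (log2 fold change 0.98). Among all tested genes 9.22% fell and 9.23% rose in DKO.

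The promoters of the 3 genes that rose together on chromosome 2 are shown because they lie upstream of the transcripts described next. Sequences are from RefSeq (GRCm38.p6) and read 5′ to 3′ on the strand of the gene, and all 8 genes matched an entry. *Il1a* is at chr2:129309973-129310222 (minus strand), *Il1b* at chr2:129371140-129371389 (minus strand) and the upstream start of *Il1rn* at chr2:24336610-24336852 (plus strand). Capitals mark matches to letters searched on both strands. These were TATAAA (in 13.6% of 32851 mouse promoters of the same length, 250 bases before to 50 after the start, and called a TATA box here), TGANTCA (AP-1, in 7.81%), GGGA and CC with any 4 bases between them (NF-κB, in 20.7%), TTCNNNGAA (STAT, in 8.3%) and a pair of GAAA with any 2 bases between them (interferon-stimulated response element, in 3.44%).
Il1a: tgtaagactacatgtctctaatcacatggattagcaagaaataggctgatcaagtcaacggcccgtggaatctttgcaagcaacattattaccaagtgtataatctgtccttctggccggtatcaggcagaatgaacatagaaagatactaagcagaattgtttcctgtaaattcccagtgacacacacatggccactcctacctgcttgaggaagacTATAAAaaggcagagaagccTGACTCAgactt
Il1b: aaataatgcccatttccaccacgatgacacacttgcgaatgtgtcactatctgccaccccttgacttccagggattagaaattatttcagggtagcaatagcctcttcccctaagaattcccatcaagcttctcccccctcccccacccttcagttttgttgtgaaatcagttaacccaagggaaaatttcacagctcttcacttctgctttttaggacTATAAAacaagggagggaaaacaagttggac
Il1rn: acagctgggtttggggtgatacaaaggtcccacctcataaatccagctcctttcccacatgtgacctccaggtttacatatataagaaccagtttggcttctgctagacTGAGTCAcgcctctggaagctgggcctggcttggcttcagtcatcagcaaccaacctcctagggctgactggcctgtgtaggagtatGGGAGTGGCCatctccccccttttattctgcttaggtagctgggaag
*Il1a* held a TATA box 32 bases and an AP-1 match 12 bases upstream of its start, *Il1b* a TATA box 31 bases upstream, and *Il1rn* an AP-1 match 141 bases and an NF-κB match 54 bases upstream. A match describes letters in this window and is not a bound site, and the lack of a match says nothing about a factor. Upstream of the starts of the others, *Il1r2* had a STAT match 111 bases away, *Il1rap* an NF-κB match 119 bases away and *Il18* a TATA box match on the opposite strand 175 bases away, and *Il18bp* and *Il1r1* had no match.

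Both IL-1 agonists, both IL-1 antagonists and the IL-18 antagonist rose in macrophages of mice without *Il10ra*. Against WT, 5 of the 8 genes rose in IL10RAKO macrophages and 0 fell (edgeR quasi-likelihood test, adjusted p under 0.05), where 15.8% of all tested genes passed, 8.7% higher and 7.1% lower. At an unadjusted p under 0.05, 2 were lower in IL10RAKO (*Il1r1* and *Il1rap*), and both passed in DESeq2 while *Il1r1* alone passed in the edgeR exact test. Over all tested genes 3818 had such a p, 2631 passed in DESeq2 and 2437 passed in the exact test. The values of 6 of the 8 genes did not overlap between the groups, 5 of them higher and 1 lower, against 18.2% of all tested genes (9.45% higher and 8.78% lower). The median log2 fold change was 2.23 over the 8 genes and −0.07 over all tested genes. In DKO macrophages 5 of the 8 rose and 2 fell, where 18.5% of all tested genes passed (9.23% higher and 9.22% lower), and 6 of the 8 did not overlap with WT, 5 higher and 1 lower (22.2% of all tested genes, 11.2% higher and 11% lower). The median there was 1.92 over the 8 genes and −0.06 over all tested genes. The labels give no sex, and *Xist*, a transcript of female mice, was detected in 3 of the 4 WT mice (4, 5 and 13), 2 of the 4 IL10RAKO mice (1 and 2) and 1 of the 4 DKO mice (14), with 0 reads in the others compared. With *Xist* as a covariate the 5 genes that rose passed again in both comparisons, and *Il1rap* and *Il18* in DKO, while over all tested genes 1829 passed in IL10RAKO (2076 without it) and 1901 in DKO (2424 without it). Calls given further on for *Il1rl1*, *Myd88* and *Mefv* in IL10RAKO and *Ikbkb* in DKO were lost with this covariate. Both comparisons share the 4 WT mice. Each library is a pool of sorted cells, so fewer cells of a kind and less RNA per cell cannot be told apart.

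**Figure D1:**
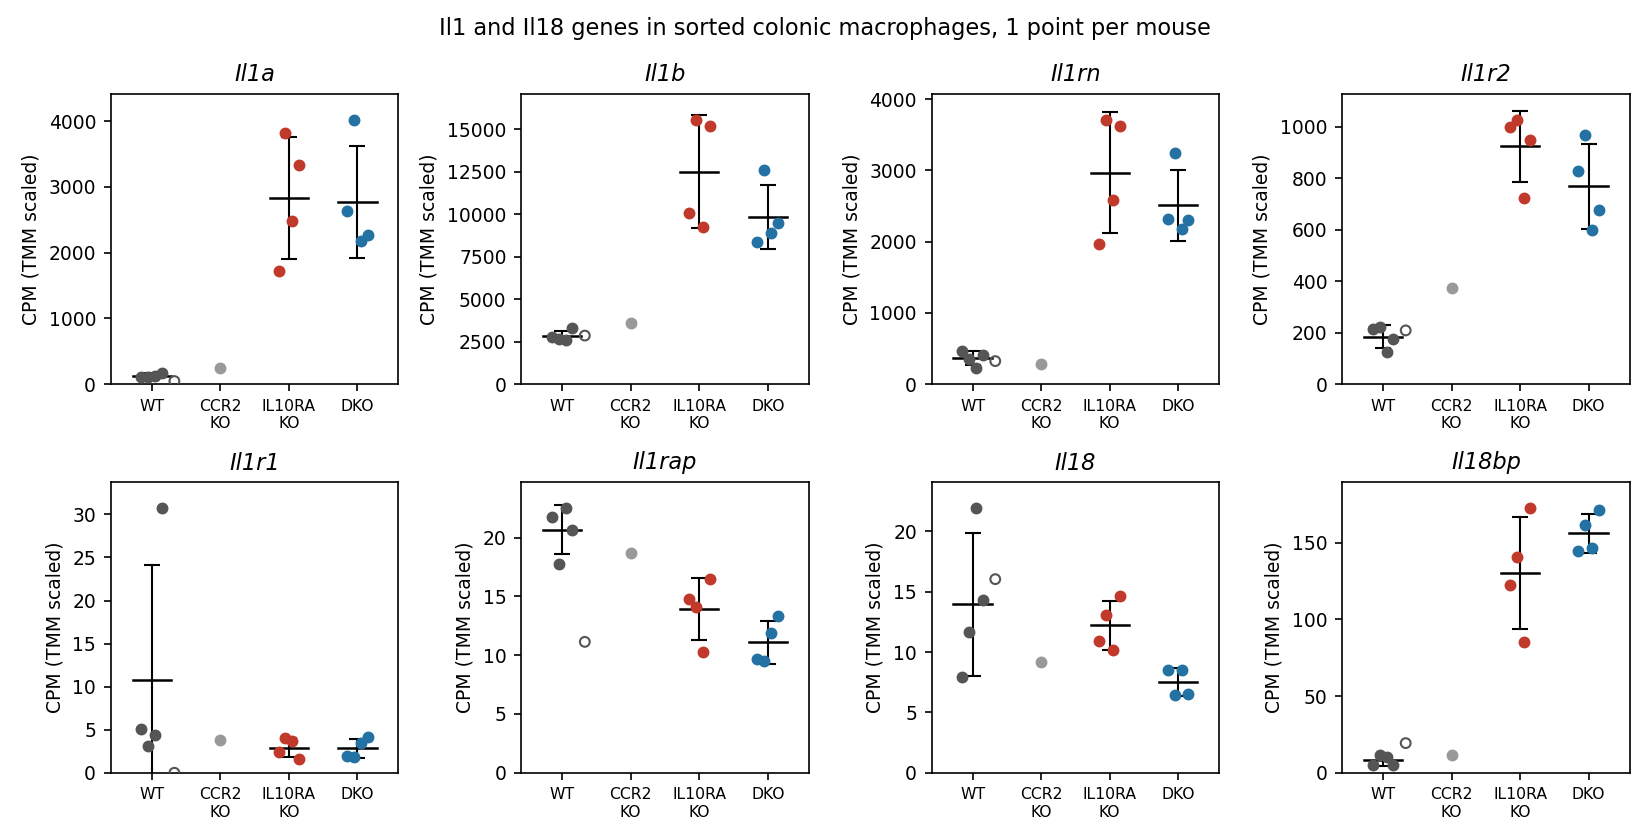
Expression of the 8 genes, with CPM after TMM scaling on the vertical axis and genotype on the horizontal axis. Each filled point is 1 mouse, lines and bars give the mean ± SD of the 4 mice compared, and the open circle is WT mouse 11, which is not in the mean. *Il1a*, *Il1b*, *Il1rn*, *Il1r2* and *Il18bp* in IL10RAKO and DKO mice all lie above every WT mouse and the CCR2KO mouse, and in the *Il1r1* panel WT mouse 13 stands apart at 30.7 CPM.

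Of the 8 genes *Il1a* had the highest fold change in both comparisons with WT. The gene lies at chr2:129299610-129309972 (GRCm38, minus strand). The WT mice had 109, 107, 131 and 178 CPM, the IL10RAKO mice 1717, 3813, 2489.8 and 3329.7 CPM and the DKO mice 2637, 4019, 2182 and 2272 CPM. Every mouse without *Il10ra* was above every WT mouse, and IL10RAKO and DKO overlapped. Its log2 fold change against WT was 4.43 ± 0.305 (SE, n = 4 per genotype, adjusted p = 7.87e-07 from edgeR) in IL10RAKO, a 21.6-fold rise, and 4.40 ± 0.304 (SE, n = 4 per genotype, adjusted p = 6.05e-07 from edgeR) in DKO, 21.2-fold. Ordered by p-value it was number 10 of the 13136 genes in IL10RAKO and number 14 in DKO. The antisense transcript *Gm14023* runs over *Il1a* on the other strand and shares 222 exon bases with it, 11.2% of the *Il1a* exons. For *Gm14023* the log2 fold change was 4.14 with loss of *Il10ra* and 4.13 with loss of both genes. The strand setting of the counting is not given in the sources used here, so reads of this pair cannot be told apart.

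*Il1b* was the most abundant of the 8 genes in every mouse. Its locus is at chr2:129364570-129371139 (GRCm38, minus strand). It stood at 2778, 2688, 2587 and 3299 CPM in WT, 10048, 15547, 9258 and 15194 CPM in IL10RAKO and 8366, 12581, 8879.7 and 9463 CPM in DKO mice. The groups without *Il10ra* did not overlap with WT, and the IL10RAKO mice fell into a lower pair (mice 1 and 7) and a higher pair (mice 2 and 8). The log2 fold change against WT was 2.14 ± 0.208 (SE, n = 4 per genotype, adjusted p = 9.33e-06 from edgeR) in IL10RAKO (4.41-fold) and 1.79 ± 0.205 (SE, n = 4 per genotype, adjusted p = 3.70e-05 from edgeR) in DKO (3.46-fold). Its transcript was already plentiful in WT macrophages, where it took up 0.297% to 0.379% of all counted reads and ranked 22 to 30 among all genes by reads. In IL10RAKO mice it took up 0.900% to 1.42%, with a rank of 4 to 7, and in DKO mice 0.814% to 1.12%, also with a rank of 4 to 7.

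*Il1rn*, which encodes the receptor antagonist, rose along with the agonists. It is encoded at chr2:24336853-24351494 (GRCm38, plus strand). Its level was 466, 361, 227 and 417 CPM in WT, 1961, 3709, 2584 and 3627 CPM in IL10RAKO and 2316, 3241, 2174 and 2304 CPM in DKO mice, with no overlap between WT and either group. The log2 fold change was 3.01 ± 0.265 (SE, n = 4 per genotype, adjusted p = 4.18e-06 from edgeR) in IL10RAKO (8.08-fold) and 2.77 ± 0.263 (SE, n = 4 per genotype, adjusted p = 6.97e-06 from edgeR) in DKO (6.82-fold). IL10RAKO mice 2 and 8, the highest for *Il1b*, were also the highest for *Il1rn* and *Il1a*. After each genotype's mean was taken away, log2 CPM of the 12 mice had r = 0.823 between *Il1a* and *Il1b*, 0.753 between *Il1b* and *Il1rn* and 0.638 between *Il1a* and *Il1rn*. These are descriptions over 12 libraries that share their scaling.

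*Il1r2*, the decoy receptor, rose, while *Il1r1*, the signalling receptor, did not pass the test. *Il1r2* lies at chr1:40074079-40125231 (GRCm38, plus strand). *Il1r2* was at 215, 221, 124 and 178 CPM in WT, 998, 1026, 723 and 949.5 CPM in IL10RAKO and 829, 969, 599 and 676 CPM in DKO mice, and WT did not overlap with the others. Its log2 fold change was 2.32 ± 0.217 (SE, n = 4 per genotype, adjusted p = 6.68e-06 from edgeR) in IL10RAKO (5.01-fold) and 2.06 ± 0.215 (SE, n = 4 per genotype, adjusted p = 1.77e-05 from edgeR) in DKO (4.16-fold). *Il1r1* follows at chr1:40225080-40317257 (GRCm38, plus strand). *Il1r1* was scarce, at 5.11, 3.11, 4.35 and 30.7 CPM in WT, 2.37, 3.99, 3.64 and 1.59 CPM in IL10RAKO and 1.99, 1.87, 3.44 and 4.10 CPM in DKO mice. WT mouse 13 carried 461 reads and stood far above the other mice, among which the groups overlapped. The log2 fold change of *Il1r1* was −1.89 in IL10RAKO (adjusted p = 0.0662 from edgeR) and −1.92 in DKO (adjusted p = 0.0565), and without WT mouse 13 these values were −0.53 and −0.55 (adjusted p = 0.498 and 0.458). WT mouse 11 had 0 reads on *Il1r1*, which allows a level of up to 0.220 CPM if 3 reads are taken as the limit. Reads carried no molecular identifiers, so such limits cover counting error only.

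*Il1r1* is abundant in fibroblasts, and the summed level of 6 fibroblast markers was 294 to 577 CPM for WT, 14.99 to 53.7 CPM for IL10RAKO and 16.1 to 67.0 CPM in DKO mice. *Col3a1* was the most abundant of them over the libraries, with 3779 to 6066 reads among WT mice, 98 to 373 among IL10RAKO mice and 139 to 845 among DKO mice. *Pdgfra* and *Lum* passed the filter on low counts only through WT, so no count of calls is given for these markers. Within WT, mouse 13 had a sum of 553 CPM with 30.7 CPM of *Il1r1*, while mouse 5 had 577 CPM with 3.11 CPM. The part of these cells in the *Il1r1* values was not tested.

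*Il1rap* fell in DKO. The gene lies at chr16:26581704-26730117 (GRCm38, plus strand). It was at 21.8, 17.8, 22.5 and 20.6 CPM in WT, 14.8, 14.1, 10.3 and 16.4 CPM in IL10RAKO and 9.72, 9.52, 11.9 and 13.3 CPM in DKO mice. Each mouse without *Il10ra* was below each of these WT mice, and WT mouse 11 was at 11.1 CPM, among the mice without *Il10ra*. The log2 fold change was −0.90 ± 0.201 (SE, n = 4 per genotype, adjusted p = 0.00635 from edgeR) in DKO. In IL10RAKO it was −0.57 ± 0.200 (SE, n = 4 per genotype, adjusted p = 0.0683 from edgeR), which did not pass. With WT mouse 11 added to the fit, the DKO value was no longer past the threshold (adjusted p = 0.0693 from edgeR). *Gm20319*, an antisense transcript, shares 552 exon bases with *Il1rap* (4.86% of its exons).

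**Figure D2:**
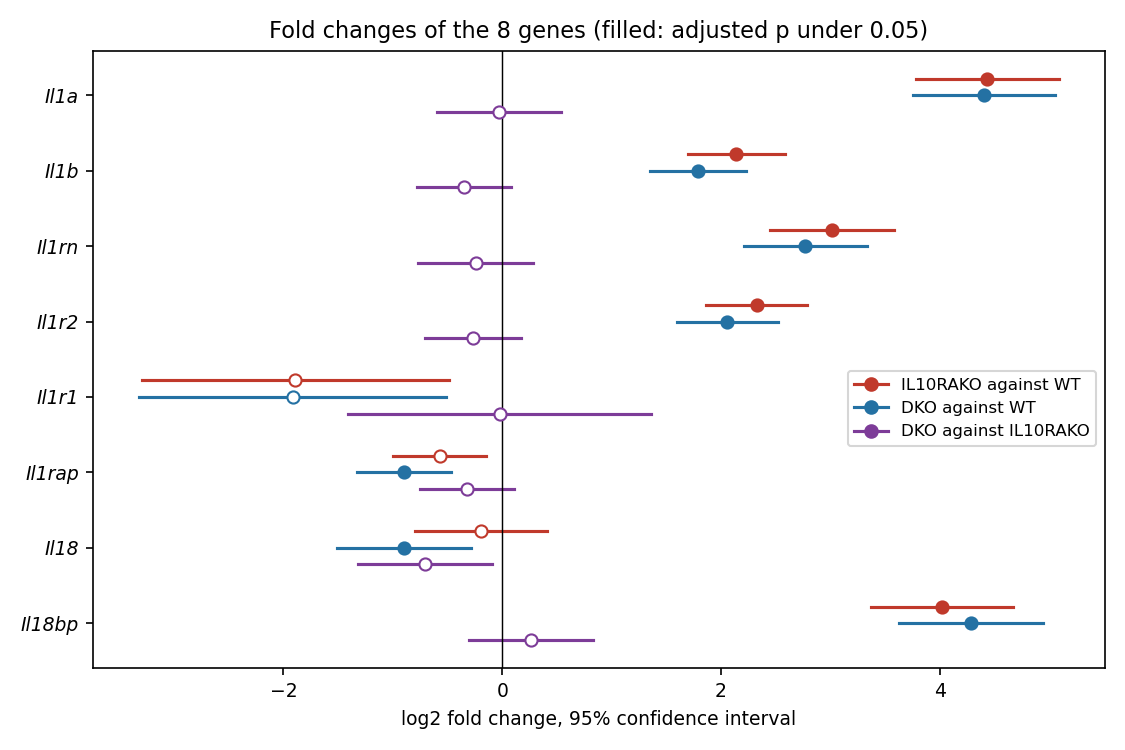
Log2 fold change (horizontal axis) of the 8 genes in 3 comparisons, from the fit of 12 libraries with 4 mice per genotype. Points are estimates, lines are 95% confidence intervals, and filled points passed an adjusted p of 0.05. In the comparison of DKO with IL10RAKO no point is filled, and the interval of *Il18* alone lies off 0.

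No rise was measured in *Il18*. It is encoded at chr9:50554827-50581840 (GRCm38, plus strand). *Il18* was low, at 7.93, 11.7, 21.9 and 14.3 CPM in WT, 10.9, 13.1, 10.2 and 14.7 CPM in IL10RAKO and 8.50, 6.47, 8.50 and 6.53 CPM in DKO mice. The IL10RAKO mice lay within the range of WT with a log2 fold change of −0.19 ± 0.283 (SE, n = 4 per genotype, adjusted p = 0.699 from edgeR), while 3 of the 4 WT mice lay above all DKO mice. The DKO value passed by a small margin, at −0.90 ± 0.286 (SE, n = 4 per genotype, adjusted p = 0.0423 from edgeR) on the log2 scale, and was no longer past the threshold in 14 of 25 other settings, with an adjusted p of up to 0.148 from edgeR. Epithelial cells are a known source of IL-18, and WT mouse 10, the highest for *Il18* at 21.9 CPM, had 1330.4 CPM summed over 8 epithelial markers. WT mouse 11 had 3532 CPM of these markers and 16.0 CPM of *Il18*, and the other 11 mice of the 3 genotypes had 41.7 to 257 CPM of the markers. *Krt8* was the most abundant of the 8 over the libraries. Without WT mouse 10 the *Il18* log2 fold change in DKO was −0.59 (adjusted p = 0.148 from edgeR). The part of epithelial RNA was not tested. *Bco2*, which starts head to head with *Il18* and overlaps it without sharing exon bases, had values of 0.03 and −0.88 on the log2 scale (DKO adjusted p = 0.0230 from edgeR). *Il18* also lies on chromosome 9 with both targeted genes, 5.29 Mb from *Il10ra* and 73.5 Mb from *Ccr2*. IL10RAKO and DKO mice share the targeted *Il10ra* allele, and DKO mice alone of these 2 groups carry that of *Ccr2*. An effect of sequence linked to either targeted allele cannot be told apart from the genotype.

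*Il18bp* rose by the widest margin after *Il1a*. Its locus is at chr7:102014885-102018690 (GRCm38, minus strand). It was at 5.16, 11.8, 10.0 and 4.99 CPM in WT, 123, 141, 85.2 and 172 CPM in IL10RAKO and 145, 162, 147 and 172 CPM in DKO mice, with a wide gap between WT and the others. Its log2 fold change was 4.02 ± 0.305 (SE, n = 4 per genotype, adjusted p = 1.70e-06 from edgeR) in IL10RAKO (16.2-fold) and 4.28 ± 0.308 (SE, n = 4 per genotype, adjusted p = 9.67e-07 from edgeR) in DKO (19.5-fold). *Numa1*, which ends over *Il18bp* on the other strand and shares 80 exon bases with it, had log2 fold changes of −0.29 and 0.10. WT mouse 11 was at 19.3 CPM, above the other WT mice and below every mouse without *Il10ra*.

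Added loss of *Ccr2* left none of the 8 genes past the threshold. Between DKO and IL10RAKO 0 of the 8 passed in edgeR, in DESeq2 and in the edgeR exact test, where 0.0457% of all tested genes (6) passed in edgeR, 0.0152% higher and 0.0305% lower. At an unadjusted p under 0.05 there was 1, *Il18*, and 388 among all tested genes. *Il18* was lower in each DKO mouse than in each IL10RAKO mouse, the case for 1 of the 8 genes, while 2.41% of all tested genes did not overlap (1.13% higher and 1.28% lower), with a log2 fold change of −0.70 (95% confidence interval −1.32 to −0.09, unadjusted p = 0.0273, adjusted p = 1.00 from edgeR). The difference was −0.03 for *Il1a* (−0.60 to 0.54), −0.35 for *Il1b* (−0.78 to 0.08) and −0.24 for *Il1rn* (−0.77 to 0.28). It was −0.27 for *Il1r2* (−0.71 to 0.18), −0.32 for *Il1rap* (−0.75 to 0.10) and 0.26 for *Il18bp* (−0.31 to 0.83). For *Il1r1* the interval held both −1 and 1 (−0.02, −1.41 to 1.36). For 6 of the other 7 genes the interval lay within −1 and 1 and for *Il18* it reached −1.32.

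Levels were next set side by side per length, as CPM per kb of exon, since longer transcripts give more reads. In WT the order of mean levels was *Il1b* at 1488 ± 166 CPM per kb, *Il1r2* at 96.7 ± 23.3, *Il1a* at 66.5 ± 16.7, *Il1rn* at 66.4 ± 18.7, *Il18* at 13.5 ± 5.74, *Il18bp* at 2.64 ± 1.14, *Il1rap* at 1.82 ± 0.183 and *Il1r1* at 1.70 ± 2.09 (SD, n = 4). Neighbours in this order overlapped among *Il1r2*, *Il1a* and *Il1rn* and among *Il18bp*, *Il1rap* and *Il1r1*. As in WT, both agonists and both antagonists of IL-1 stood above the other members in the mice without *Il10ra*. In IL10RAKO, *Il1b* was at 6561 ± 1741, *Il1a* at 1437 ± 469, *Il1rn* at 537 ± 153, *Il1r2* at 484 ± 72.3, *Il18bp* at 43.0 ± 12.0, *Il18* at 11.9 ± 1.97, *Il1rap* at 1.23 ± 0.231 and *Il1r1* at 0.455 ± 0.176 CPM per kb. DKO had the same order, and in both genotypes *Il1rn* and *Il1r2* alone overlapped as neighbours.

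The balance of agonist and antagonist transcripts was described as a ratio of CPM per kb within each library. *Il1rn* per *Il1b* was 0.0578, 0.0463, 0.0302 and 0.0435 in WT, 0.0673, 0.0822, 0.0962 and 0.0822 in IL10RAKO and 0.0954, 0.0887, 0.0844 and 0.0839 in DKO mice, all well under 1, with every mouse without *Il10ra* above every WT mouse. Counted against *Il1a* and *Il1b* together, the mean ratio of the WT mice was 0.0426 ± 0.0111, that of the IL10RAKO mice 0.0671 ± 0.00762 and that of the DKO mice 0.0693 ± 0.00254 (SD, n = 4). *Il1a* per *Il1b* was 0.0379, 0.0385, 0.0489 and 0.0521 in WT, 0.165, 0.237, 0.260 and 0.212 in IL10RAKO and 0.304, 0.309, 0.237 and 0.232 in DKO mice. WT lay below the others here as well. The widest change was that of *Il18bp* per *Il18*, at 0.222, 0.346, 0.156 and 0.119 in WT, 3.82, 3.67, 2.84 and 4.01 in IL10RAKO and 5.81, 8.51, 5.87 and 8.96 in DKO mice. Per kb of exon, *Il18* thus stood above its antagonist in WT and below it in the mice without *Il10ra*, with the ratio of each DKO mouse above that of each IL10RAKO mouse. WT mouse 11 (0.411) and CCR2KO mouse 6 (0.430) also had more *Il18* than *Il18bp* per kb. This order depends on the exon lengths, 3.03 kb for *Il18bp* and 1.03 kb for *Il18*. In CPM without this division, *Il18bp* was above *Il18* in mouse 11 (19.3 against 16.0) and mouse 6 (11.6 against 9.18). The same held in WT mouse 5 (11.8 against 11.7), while in WT mice 4, 10 and 13 *Il18bp* was below *Il18*. These ratios rest on annotated exon lengths and were not tested.

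**Figure D3:**
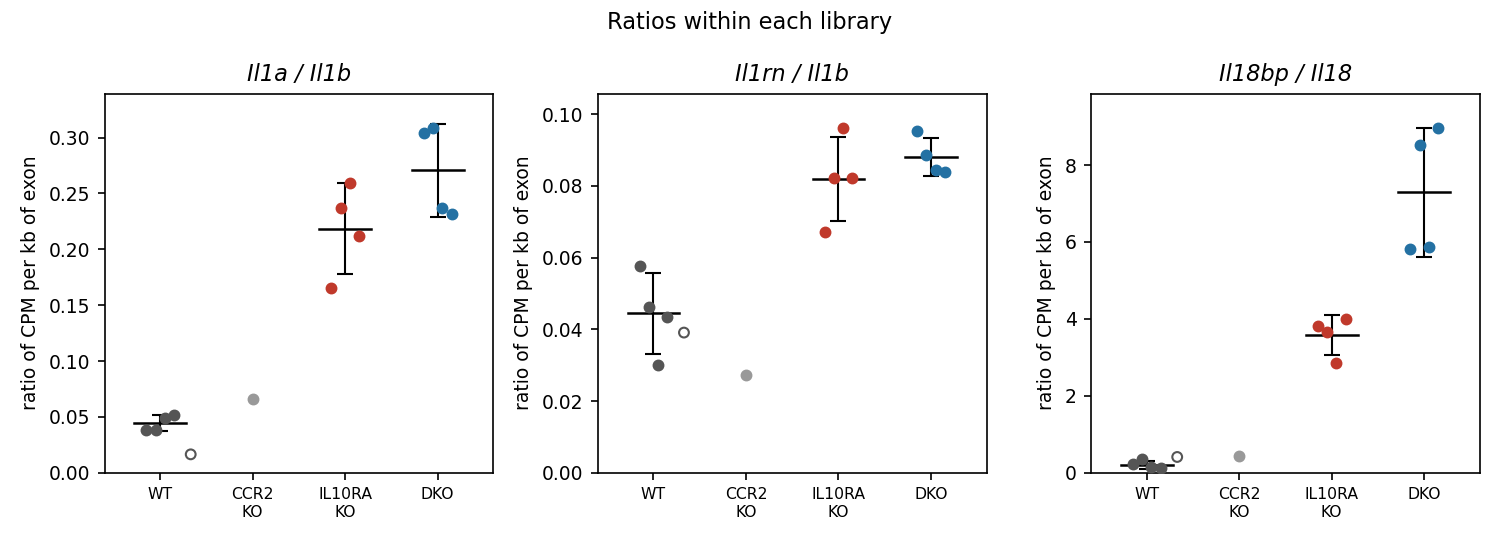
Ratios of CPM per kb of exon between pairs of the genes (vertical axis) by genotype (horizontal axis), for *Il1a* to *Il1b*, *Il1rn* to *Il1b* and *Il18bp* to *Il18*. Each filled point is 1 mouse, bars are the mean ± SD of 4 mice, and the open circle is WT mouse 11. WT mice lie below IL10RAKO and DKO mice in all 3 panels, and for *Il18bp* to *Il18* the DKO mice (5.81 to 8.96) lie above the IL10RAKO mice (2.84 to 4.01).

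The receptor genes of this family lie side by side on chromosome 1, within 477.6 kb from *Il1r2* to *Il18rap*, which allowed *Il1r2* to be set against its neighbours. Of the 6 receptor genes in this stretch, *Il1r2* rose and the others did not. *Gm16894*, which lies within *Il1r2* on the other strand, did not pass (log2 fold change 0.16 in both genotypes), and *Map4k4*, which starts at −173 kb from the start of *Il1r2*, rose in both (1.39 and 1.48, adjusted p = 0.00640 and 0.00391 from edgeR). *Il1rl1*, which encodes the IL-33 receptor ST2, fell in IL10RAKO with a log2 fold change of −2.40 ± 0.740 (SE, n = 4 per genotype, adjusted p = 0.0407 from edgeR), from 18 to 106 reads in WT to 6 to 22 reads in IL10RAKO mice, and this call was lost in 12 of 24 other settings. In DKO its value was −1.45 (adjusted p = 0.180 from edgeR). The IL-18 receptor chains were scarce. *Il18r1*, the chain that binds IL-18, had 0 to 70 reads among WT mice, 1 to 13 among IL10RAKO mice and 5 to 18 among DKO mice (log2 fold change −2.19 and −1.79, adjusted p = 0.196 and 0.271 from edgeR). *Il18rap*, the accessory chain, had a mean of 7.02 ± 5.69 CPM over the WT mice, 9.54 ± 4.60 CPM over the IL10RAKO mice and 8.78 ± 0.503 CPM over the DKO mice (SD, n = 4). *Il1rl2*, the receptor for IL-36, was at 14.98 ± 2.83, 19.1 ± 6.52 and 18.7 ± 7.44 CPM in the same order.

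**Figure D4:**
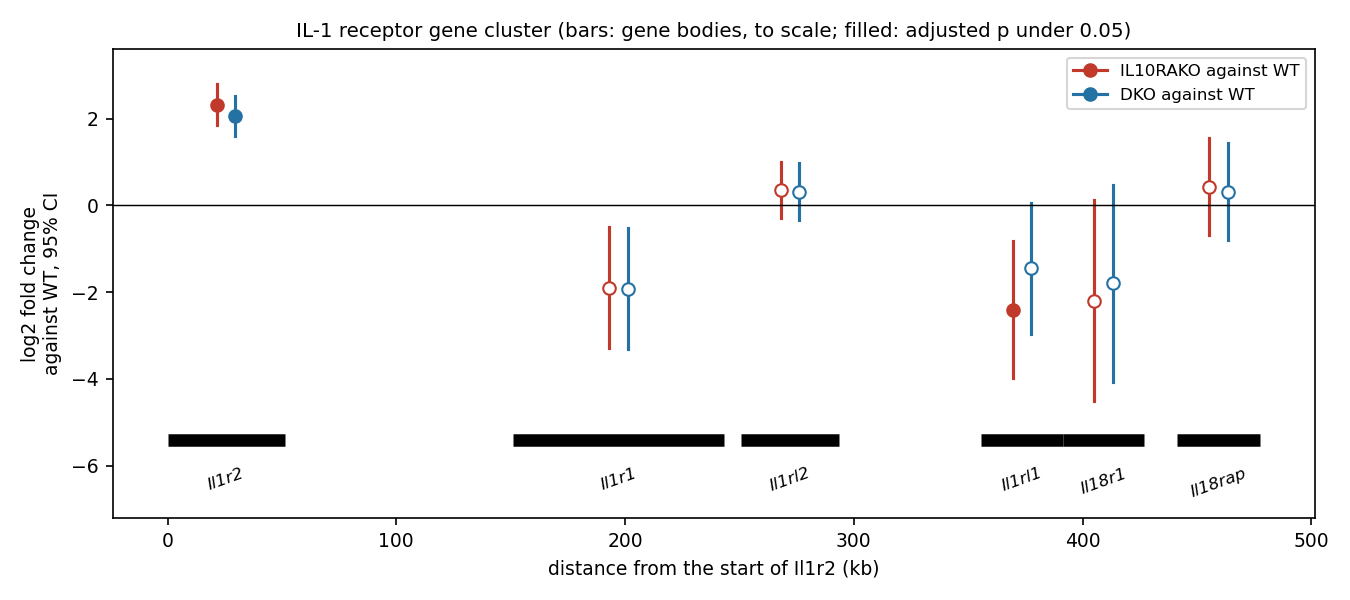
Log2 fold change against WT (vertical axis) of the 6 receptor genes around *Il1r2*, at their distance in kb from the start of *Il1r2* (horizontal axis, to scale, with gene bodies as bars). Lines are 95% confidence intervals with 4 mice per genotype, and filled points passed an adjusted p of 0.05. *Il1r2* is the one gene above 0 with a filled point, and *Il1rl1* in IL10RAKO is the one below 0.

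Other ligands of the family were scarce in WT. *Il36g*, an IL-36 agonist which starts at −150.4 kb from the start of *Il1rn*, had 1, 0, 0 and 0 reads in the WT mice, 9, 92, 47 and 63 in the IL10RAKO mice and 42, 72, 85 and 28 in the DKO mice. Every mouse without *Il10ra* had more reads than every WT mouse. *Il36g* passed the filter on low counts only through the groups where it is high, so its values are a description and no test or fold is given. CCR2KO mouse 6 had 28 reads of *Il36g* and WT mouse 11 had 0. Of the 13 other family members 7 passed the filter on low counts. Leaving *Il36g* aside, the one that passed the test against WT was *Il1rl1* in IL10RAKO, where 15.8% of all tested genes passed. *Il33*, the alarmin of stromal and epithelial cells, had 4 to 47 reads in WT and 3 to 10 and 3 to 9 reads in IL10RAKO and DKO mice.

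Downstream of the receptor, *Irak2*, *Traf6* and *Irak3* rose in both genotypes. Among 18 signalling genes, 5 rose in IL10RAKO and 4 in DKO, where 8.7% and 9.23% of all tested genes rose. The median log2 fold change was 0.29 and 0.26, against −0.07 and −0.06 over all tested genes. *Irak2*, a kinase of the MyD88 complex, was at 97.2, 125, 98.6 and 93.6 CPM in WT, 234, 409.8, 258 and 263 CPM in IL10RAKO and 196, 337, 239.7 and 249 CPM in DKO mice, without overlap between WT and the others. Its log2 fold change was 1.49 ± 0.211 (SE, n = 4 per genotype, adjusted p = 0.000249 from edgeR) in IL10RAKO and 1.30 ± 0.210 (SE, n = 4 per genotype, adjusted p = 0.000612 from edgeR) in DKO. *Traf6*, the ubiquitin ligase that follows the IRAK kinases, rose by 1.03 and 1.05 on the log2 scale, and *Irak3*, an inhibitor of this chain, by 0.83 and 0.92. The *Irak3* values of IL10RAKO and WT overlapped, with IL10RAKO mouse 7 at 45.0 CPM and WT mouse 4 at 48.1 CPM, and its call in IL10RAKO was lost with library totals alone (adjusted p = 0.0744). The others that passed in IL10RAKO were *Myd88* (0.77), which did not pass in DKO, and *Ikbkb* (0.52), a kinase that releases NF-κB. The call for *Myd88* in IL10RAKO was lost in 12 of 25 other settings and that for *Ikbkb* in 6. In DKO *Ikbkb* passed by a small margin (0.45, adjusted p = 0.0333 from edgeR), which was lost in 11 settings, with an adjusted p of up to 0.338.

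Among genes for maturation and release of IL-1β and IL-18, *Gsdmd* and *Ninj1* rose in both genotypes. Of 17 such genes tested, 3 rose and 1 fell in each genotype, where 15.8% of all tested genes passed in IL10RAKO and 18.5% in DKO (median log2 fold change 0.32 in IL10RAKO and 0.09 in DKO). *Gsdmd*, whose cleaved product forms the pore through which IL-1β leaves the cell, was at 92.2, 124, 126 and 121 CPM in WT, 272, 257, 197 and 298 CPM in IL10RAKO and 243, 256, 201 and 235 CPM in DKO mice, with WT below all others. The log2 fold change was 1.14 ± 0.163 (SE, n = 4 per genotype, adjusted p = 0.000271 from edgeR) in IL10RAKO and 1.01 ± 0.163 (SE, n = 4 per genotype, adjusted p = 0.000601 from edgeR) in DKO. *Ninj1*, which ruptures the plasma membrane of dying cells, rose by 1.13 and 1.07. *Mefv*, which encodes the sensor pyrin, rose in IL10RAKO (0.94, lost in 11 of 25 other settings), with 0.23 in DKO. Calpains cut IL-1α, and of their large subunits *Capn2* fell by 0.67 and 0.96 while *Capn1* rose in DKO (1.05). The core of the NLRP3 inflammasome did not pass in IL10RAKO, with 0.95 for *Nlrp3* (adjusted p = 0.166 from edgeR), 0.57 for *Casp1* (adjusted p = 0.0888) and 0.31 for *Pycard* (adjusted p = 0.367). *Nlrp3* was at 37.4, 80.0, 89.6 and 174 CPM in the WT mice and 96.2, 298, 221 and 119 CPM in the IL10RAKO mice, which overlapped.

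**Figure D5:**
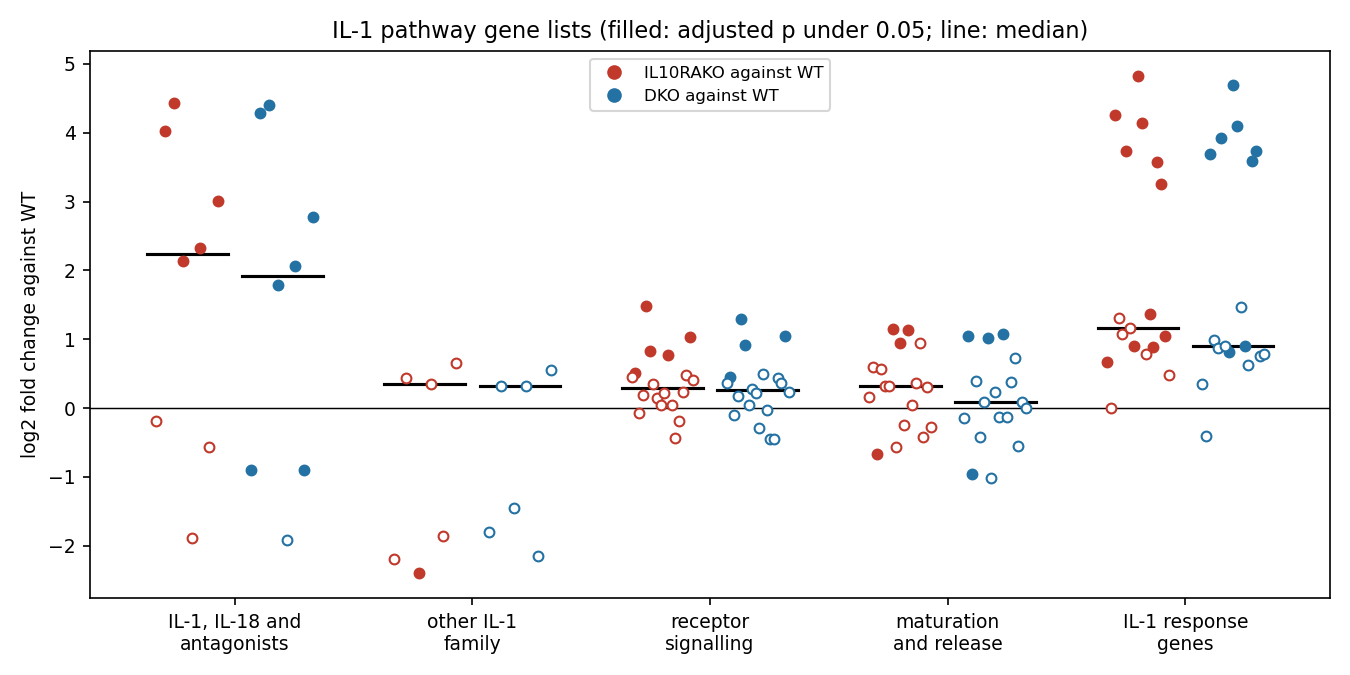
Log2 fold change against WT (vertical axis) of the tested genes in 5 lists of the IL-1 and IL-18 system (horizontal axis), for IL10RAKO and DKO with 4 mice per genotype. Each point is a gene, filled where the adjusted p was under 0.05, and the line is the median over the tested genes of the list. *Csf3* is drawn filled among the response genes. It passed the filter on low counts only through the mice without *Il10ra*, so its points are a description and not a test. *Il36g*, with 0 or 1 read in WT, counts in the median but is not drawn, and the highest points of the response genes are *Il23a* at 4.83 and 4.70.

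Genes known to respond to IL-1 were taken as a further list, although many of them respond to other signals such as microbial products. Of 17 tested, 11 rose in IL10RAKO and 8 in DKO, where 8.7% and 9.23% of all tested genes rose, and 6 and 9 did not pass, among them the chemokine genes *Cxcl1*, *Cxcl2* and *Cxcl5* in both genotypes. *Cxcl3*, a further chemokine gene, rose in both (3.73 and 3.92 on the log2 scale, adjusted p = 0.000257 and 0.000159 from edgeR). In each count of genes that rose, 1 is *Csf3*, which passed the filter on low counts only through the mice without *Il10ra*. The medians that follow hold it as well, so these counts and medians are descriptions and not tests of the list. The median log2 fold change over the tested genes of the list was 1.16 in IL10RAKO and 0.91 in DKO. *Il23a*, a subunit of IL-23, was at 14.5, 3.46, 5.92 and 2.73 CPM in WT, 78.2, 311, 128 and 246 CPM in IL10RAKO and 161, 321, 109.8 and 106 CPM in DKO mice. *Csf3*, the granulocyte growth factor, had 23, 24, 0 and 28 reads in WT, 236, 609, 157 and 289 in IL10RAKO and 269, 328, 158 and 178 in DKO mice. *Il6* was at 9.02, 9.26, 9.32 and 11.4 CPM in WT, 77.9, 324, 93.9 and 193 CPM in IL10RAKO and 189.8, 194, 140.0 and 140.0 CPM in DKO mice. In all 3 genes each mouse without *Il10ra* lay above each WT mouse, and IL10RAKO mouse 2 was the highest of the IL10RAKO mice, as it was for *Il1a* and *Il1b*. The log2 fold changes in IL10RAKO and DKO were 4.83 and 4.70 for *Il23a* and 4.15 and 4.09 for *Il6* (adjusted p of at most 0.000103 from edgeR in each). The reads of *Csf3* are given as a description, with no test. *Csf2*, another colony-stimulating factor, did not pass in either comparison (1.81 ± 0.506 CPM in WT, 1.81 ± 0.795 CPM in IL10RAKO and 1.36 ± 0.595 CPM in DKO mice, SD, n = 4). Between DKO and IL10RAKO 0 genes passed in each of these 4 lists in edgeR, and 1 signalling gene (*Map3k8*) and 2 genes of maturation (*Casp4* and *Mefv*) had an unadjusted p under 0.05. Over all 13136 tested genes 6 passed in edgeR in this comparison and 388 had such an unadjusted p. DESeq2 and the edgeR exact test also gave 0 in each list.

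Cell types that the gate could hold beside macrophages were read from their markers. Neutrophils are rich in *Il1b*, *Il1rn* and *Il1r2*. The sum of 12 neutrophil markers was 76.1 to 127 CPM for WT, 146 to 349.6 CPM for IL10RAKO and 227 to 299.95 CPM in DKO mice, of which *Csf3r*, also expressed by macrophages, made up the most (73.4 to 117, 132 to 229.7 and 131 to 224 CPM). Several of them passed the filter on low counts only through the mice without *Il10ra*, so no count of calls is given. *Mmp8*, a granule protease, had 16 to 152 reads among WT mice, 158 to 549 among IL10RAKO mice and 458 to 961 among DKO mice. *S100a9*, *Camp*, *Elane* and *Mpo* were at 0 in all 4 WT mice compared, and *Mpo* in 6 of the 8 others. The defining marker *Ly6g*, against which cells were gated, had 0 to 1 reads among WT mice, 0 to 12 among IL10RAKO mice and 1 to 10 among DKO mice. *S100a8* had 0, 0, 0 and 11 reads in the WT mice, 34, 688, 16 and 57 in the IL10RAKO mice and 178, 177, 305 and 368 in the DKO mice. IL10RAKO mouse 7, with 16 reads of *S100a8* and 0 of *Ly6g*, had 9258 CPM of *Il1b*, 2584 CPM of *Il1rn* and 723 CPM of *Il1r2*. It was the lowest IL10RAKO mouse for *S100a8*, *Il1b* and *Il1r2*. Mouse 2, with 688 reads of *S100a8* and 12 of *Ly6g*, was the highest of this genotype for *Il1b*, *Il1rn* and *Il1r2* (15547, 3709 and 1026 CPM). Among DKO mice, mouse 3 was the lowest for both *S100a8* (9.83 CPM) and *Il1b* (8366 CPM). DKO mouse 9 had 11.0 CPM of *S100a8* and the highest *Il1b* (12581 CPM), while mouse 12, the highest for *S100a8* (21.4 CPM), had 8879.7 CPM of *Il1b*. The part of neutrophils in the changes of the 8 genes was not tested.

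Monocyte and dendritic cell markers differed as well. The sum of 7 monocyte markers was 489 to 555 CPM for WT, 388 to 1072 CPM for IL10RAKO and 448 to 713 CPM in DKO mice, with 2 genes higher (*Ly6c2* and *Plac8*) and 2 lower (*Ly6c1* and *F13a1*) in both genotypes, where 15.8% and 18.5% of all tested genes passed. *Ly6c2* was at 7.64, 6.45, 5.80 and 6.13 CPM in WT, 95.1, 177, 38.4 and 125 CPM in IL10RAKO and 89.0, 75.3, 74.9 and 87.8 CPM in DKO mice. For 6 dendritic cell markers the sum was 309 to 1402 CPM for WT, 1540.5 to 1924 CPM for IL10RAKO and 1023 to 1821 CPM in DKO mice. *Ccr7*, a marker of activated dendritic cells, was the most abundant of them over the libraries, at 921, 655, 194 and 253 CPM in WT, 1288, 1631, 1759.8 and 1439.8 CPM in IL10RAKO and 1686, 1706, 1061 and 973 CPM in DKO mice. In IL10RAKO 2 of the 6 rose (*Ccr7* and *Xcr1*), while in DKO *Ccr7* rose and *Cd209a* fell, where 15.8% and 18.5% of all tested genes passed. *Cd209a*, a marker of monocyte-derived dendritic cells, was at 186 ± 140.3 CPM in WT, 97.0 ± 82.3 CPM in IL10RAKO and 27.3 ± 17.9 CPM in DKO mice (SD, n = 4). WT mouse 4, with 921 CPM of *Ccr7*, had 109 CPM of *Il1a* and 2778 CPM of *Il1b*, within the range of the other WT mice. It was the highest of the WT mice compared for *Il1rn*, at 466 CPM. WT mice 4 and 5, the highest for *Ccr7*, had 215 and 221 CPM of *Il1r2*, against 124 and 178 CPM in mice 10 and 13. The part of monocytes and dendritic cells in these changes was not tested either. Of 4 endothelial markers tested 1 fell in IL10RAKO (*Tie1*) and 2 in DKO (*Tie1* and *Pecam1*), where 7.1% and 9.22% of all tested genes fell. Markers of endothelial, T and NK, and B and plasma cells had sums of 77.1 to 236, 20.2 to 45.3 and 521 to 1825 CPM for WT, 63.3 to 103, 25.1 to 61.7 and 395 to 1079 CPM in IL10RAKO, and 49.9 to 84.2, 28.6 to 76.5 and 482 to 1879 CPM in DKO mice.

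The genes most like each of the 8 over the 12 libraries, by the correlation of log2 CPM, were listed as a description, since the 3 genotypes make up much of the spread that such genes share. *Il1a* was most like its antisense transcript *Gm14023* (r = 0.999), and then *Cxcl10* and *Ccl5* (both 0.990), which encode chemokines. *Il1b* was most like *Ccrl2* (0.990), an atypical chemokine receptor, *Hilpda* (0.987) and *Tlr2* (0.985), a sensor of bacterial lipoproteins. *Il1rn* was most like *Hilpda* (0.990), *Cd274*, which encodes a ligand of PD-1 (0.989), and *Cxcl10* (0.989). *Il1r2* was most like *Plaur* (0.995), the urokinase receptor, *Got1* (0.994) and *Pde4b* (0.989), and *Il18bp* was most like *Ly6i* (0.994), *Pygl* (0.987) and *Cfb* (0.986), which encodes complement factor B. The correlations of the genes that did not rise were lower. *Il1rap* was most like *Kazald1* (0.939), *Ch25h* (0.937) and *Pid1* (0.927), *Il18* was most like *Tnfsf8* (0.945), *Clec4a4* (0.910) and *Bod1* (0.891), and *Il1r1* was most like *B230307C23Rik* (0.918), *Man2c1os* (0.906) and *Smcr8* (0.889).

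The single CCR2KO library and WT mouse 11 gave a view outside the groups compared. CCR2KO mouse 6 was at 248 CPM for *Il1a*, 3630.1 for *Il1b*, 286 for *Il1rn*, 375 for *Il1r2* and 11.6 for *Il18bp*, below every IL10RAKO and DKO mouse in each of the 5 genes. WT mouse 11 was at 48.9 CPM for *Il1a*, 2864 for *Il1b*, 325 for *Il1rn*, 209 for *Il1r2* and 19.3 for *Il18bp*, also below each of them. With 1 mouse each these values carry no replicate check.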

How the data were processed

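RNA of sorted colonic macrophages was sequenced as paired-end SmartSeq v4 libraries, and the authors deposited raw counts of reads per gene for 24982 genes in 14 libraries. The submitters' processing notes name bcl2fastq 2.20, STAR 2.5.1b, mm10 and edgeR 3.34.0, while the annotation, the strand setting and the treatment of reads with several alignments are not given in the sources used here. The authors also deposited edgeR pseudocounts, a score adjusted to a common library size, for 13338 genes in 12 libraries, which were used as an alternative. The number of per-sample columns left unused was 0.

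The tests were run with edgeR 4.0.16 and limma 3.58.1 under R 4.3.3. Low genes were removed by filterByExpr (minimum count 10), and the rest scaled with TMM and fitted over 12 libraries (4 mice per genotype) with glmQLFit and glmQLFTest, and p-values were adjusted over 13136 genes by the Benjamini-Hochberg method with a threshold of 0.05. The counts per sample ranged from 13085287 to 21216468 in these libraries, and 3 reads, taken as the limit of detection, were worth 0.124 to 0.211 CPM. Levels per kb used the exons of GENCODE vM21 (GRCm38), to which 24490 symbols matched, and promoters came from RefSeq. Log2 CPM had a prior count of 2. P-values measure the spread between these mice, for which no litter, batch or sex was given. The alternatives were other scalings, filters, tools (DESeq2 1.42.0 among them) and fits that left out each mouse.

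The genes named were the 8 described, both targeted genes, the IL-18 receptor chains, up to 3 genes in each direction of each list with the widest change past the threshold in IL10RAKO, the 3 genes most like each of the 8, and the most abundant and defining markers. Other genes were named for their role or position after their values had been seen. The members and lists were chosen with earlier results of these data known. Plots were drawn with matplotlib 3.10.9.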

Additional observations from a re-analysis of the deposited data

Results flagged for a closer look

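*Il1rn* in DKO mouse 9 stood apart from its group, at 3241 CPM against 2174 to 2316 CPM in the other 3 DKO mice. Such a gap is met by chance in about 5% of groups, and 24 groups of 4 mice were examined. CCR2KO mouse 6, which entered no test, was above all 4 WT mice compared in 3 genes: *Il1a* at 247.6 CPM (WT 107.0 to 177.9), *Il1b* at 3630.1 CPM (WT 2587 to 3299) and *Il1r2* at 375 CPM (WT 124 to 221). The difference was not tested, since it rests on a single library.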

How the results depend on the processing

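In 25 other settings *Il1a*, *Il1b*, *Il1rn*, *Il1r2* and *Il18bp* passed in both comparisons with WT, with log2 fold changes in IL10RAKO of 4.11 to 4.63, 1.81 to 2.26, 2.69 to 3.18, 2.00 to 2.43 and 3.67 to 4.27, and in DKO of 4.13 to 4.60, 1.53 to 1.87, 2.51 to 2.91, 1.80 to 2.24 and 3.94 to 4.53. The number of the 8 genes past the threshold was 5 to 7 in IL10RAKO, 5 to 8 in DKO and 0 between DKO and IL10RAKO in each setting, while over all tested genes it was 1485 to 2735 in IL10RAKO and 1691 to 3008 in DKO. *Il1r1* passed in 7 settings in IL10RAKO and in 8 in DKO, and the fall of *Il1rap* in IL10RAKO passed in 3. *Capn2* no longer passed in IL10RAKO without IL10RAKO mouse 2 (adjusted p = 0.0610 from edgeR), and *Ikbkb* in DKO no longer passed in 11 settings. The cause of these changes was not tested. Between DKO and IL10RAKO the count over all tested genes was 6, and it was 22 in the edgeR exact test, 24 in DESeq2 and 10 without IL10RAKO mouse 2. Scaling to library totals moved the median over all tested genes, on the log2 scale, to −0.38 in IL10RAKO and −0.32 in DKO, and the share of higher genes among those that passed from 55.1% to 23.8% and from 50.0% to 25.9%, and upper quartile factors gave 43.4% and 37.7%. No paired analysis was possible because the labels give no replicate numbers and the genotypes are different mice. The paper states that controls were littermates housed together, but the litter and cage of each sequenced mouse are not given.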
